A study of Homo sapiens with 4 samples.

Results

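The CMG complex is the helicase that unwinds DNA at replication forks. Its members here are 10 genes: MCM2, MCM3, MCM4, MCM5, MCM6 and MCM7, which encode the ring-shaped motor; CDC45, which encodes the factor that joins the ring when an origin fires; and GINS1, GINS2 and GINS3, which encode subunits of the GINS assembly that locks CDC45 onto the ring. Every probe set whose single gene symbol was one of these names was taken, which gave 29 of the 49395 probe sets on the array and 10 of 18132 genes.

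MCM rings are loaded onto origins in G1 as inactive double rings by the origin recognition complex with CDC6 and CDT1. In S phase the kinases CDC7 and CDK2 let CDC45 and GINS bind, and the rings part and start to unwind DNA. The genes for these proteins are classical targets of E2F transcription factors and are transcribed mainly in proliferating cells, so the MCM proteins serve widely as proliferation markers in tumours, gliomas among them.

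The cells were U87MG, an established human glioblastoma line, in 4 conditions of 24 h: DMSO as control, 10 µM mycophenolic acid (MPA), 100 µM guanosine, and 10 µM MPA with 100 µM guanosine. MPA inhibits IMP dehydrogenase, the enzyme that feeds guanine nucleotide synthesis, and guanosine can supply guanine nucleotides through salvage. Each condition was read on 1 Affymetrix PrimeView array from total RNA, so there are 4 arrays and no replicates. Every difference below is between 2 arrays, no test was possible, and precision is limited by having so few arrays. The study's title is about IMP dehydrogenase-2 and nucleolar activity in glioblastoma, and the comparisons address how inhibiting the enzyme and supplying guanosine bear on the mRNAs.

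The median probe set signal lay between 61.8 and 64.5 over the 4 arrays. All 7 glioma and mesenchymal markers, VIM, CD44, CHI3L1, SPARC, FN1, NES and GFAP, reached the floor of 63.0 (the median of all non-control values) on all 4 arrays. GFAP, an astrocyte marker, was dim, at 99.6 or less on every array. Of the leukocyte markers, 0 of 4 reached the floor on any array, among them PTPRC, and of the endothelial markers 2 of 4 did on all arrays, VWF and KDR, while PECAM1 and CDH5 were below it on all. The summed signal of 5 neuron and oligodendrocyte markers, 2 of them above the floor on all arrays, was 2109 with MPA and 1364 to 1495 on the other arrays, mostly SNAP25, and that of 4 epithelial markers, 0 of them above the floor on all arrays, was 249 with MPA and 193 to 213 on the others. The spiked poly-A control transcripts, a check on labelling, gave less signal on the MPA array than on the control array in 24 of 24 probe sets; their median log2 difference was -0.24. For MPA against guanosine it was -0.42 and for both compounds against MPA 0.50, while guanosine and both compounds were at 0.22 and 0.24 against control and both compounds at 0.07 against guanosine. The part of these markers and controls in the results below was not tested.

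The stretches before the start sites of 5 members are shown here because they hold, or do not hold, the E2F motif, and because the 5 genes were among those lower with MPA. They come from RefSeq on GRCh38.p14 and read 5′ to 3′ on the strand of the gene, and each lies within the 250 bases before the start. Capitals mark the E2F motif, searched as TTTGGCGC, TTTCCCGC, TTTCGCGC and TTTGCCGC on both strands. MCM6 is at chr2:135876477-135876640, GINS2 at chr16:85688955-85689030, MCM3 at chr6:52284864-52284961 and MCM7, at the farthest upstream of 3 listed starts, at chr7:100101398-100101629, all on the minus strand; GINS3 is at chr16:58392351-58392470 on the plus strand.
MCM6: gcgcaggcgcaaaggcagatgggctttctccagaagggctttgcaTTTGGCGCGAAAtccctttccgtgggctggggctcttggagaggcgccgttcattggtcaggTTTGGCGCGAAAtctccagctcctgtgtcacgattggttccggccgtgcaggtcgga
GINS2: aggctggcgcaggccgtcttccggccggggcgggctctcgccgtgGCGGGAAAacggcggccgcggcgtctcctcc
MCM3: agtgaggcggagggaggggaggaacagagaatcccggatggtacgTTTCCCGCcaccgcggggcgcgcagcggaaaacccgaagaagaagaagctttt
MCM7: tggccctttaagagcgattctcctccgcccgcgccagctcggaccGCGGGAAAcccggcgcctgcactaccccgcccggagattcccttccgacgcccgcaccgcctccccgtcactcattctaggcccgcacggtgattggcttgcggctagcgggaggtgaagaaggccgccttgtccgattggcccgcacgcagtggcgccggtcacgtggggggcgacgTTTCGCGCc
GINS3: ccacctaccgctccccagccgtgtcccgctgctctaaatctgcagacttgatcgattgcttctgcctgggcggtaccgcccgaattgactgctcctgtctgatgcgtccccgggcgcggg

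The table of promoters held 8 of the 10 genes, without MCM4 and MCM5, and 12 windows, since MCM7 and CDC45 have 3 starts each. The E2F motif was in a window of 4 of the 8 genes, and in 3.40% of all 27305 genes in the table. Of 73 other pathway genes, from the lists given below, 28.8% had it. Per window the share was 33.3% for the members (4 of 12) and 2.79% for all 35116 windows. MCM6 carried it in a pair of sites, each a TTTGGCGC overlapped by the reverse complement of TTTCGCGC; the sites end 141 and 79 bases before the start. In GINS2 the motif lay 31 to 24 bases before the start. The stretch of GINS3 shown has no match, and neither had any window of MCM2, CDC45 or GINS1, which says only that these letters are not in those windows. The CCAAT box, searched as CCAAT on both strands, was in 6 of 8 member genes, 49.3% of the 73 other pathway genes and 37.0% of all genes. The cell cycle motif CHR, searched as TTTGAA and TTCGAA on both strands, was in 1 of 8, MCM6, and in 17.2% of all genes. A match is a description of the letters and was not tested for binding.

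MPA against control asks what blocking IMP dehydrogenase does to the helicase mRNAs. All 10 genes had lower signals on the MPA array, each read from its main probe set, the one with the highest mean signal outside the _x_at probe sets, whose probes can bind several genes. Of all genes compared, 49.7% were lower. At 1.5-fold, 9 of 10 were lower, against 7.52% of the 10951 genes compared, and at 2-fold 6 of 10, against 1.42%. None was higher by 1.5-fold (0 of 10, against 5.41%). The members' median log2 difference was -1.28, from -1.66 (GINS2) to -0.33 (MCM5), and that of all genes compared was 0.00. The MPA array was the lowest of the 4 arrays for 10 of 10 members and for 42.0% of all genes above the floor. By probe set it was the lowest in 27 of 27 of the members' probe sets that reached the floor, and in the 2 that did not. The share over all probe sets was not counted, and probe sets of 1 gene read the same RNA. In bulk RNA, fewer cells that transcribe a gene and less of its mRNA per cell cannot be told apart.

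**Figure D1:**
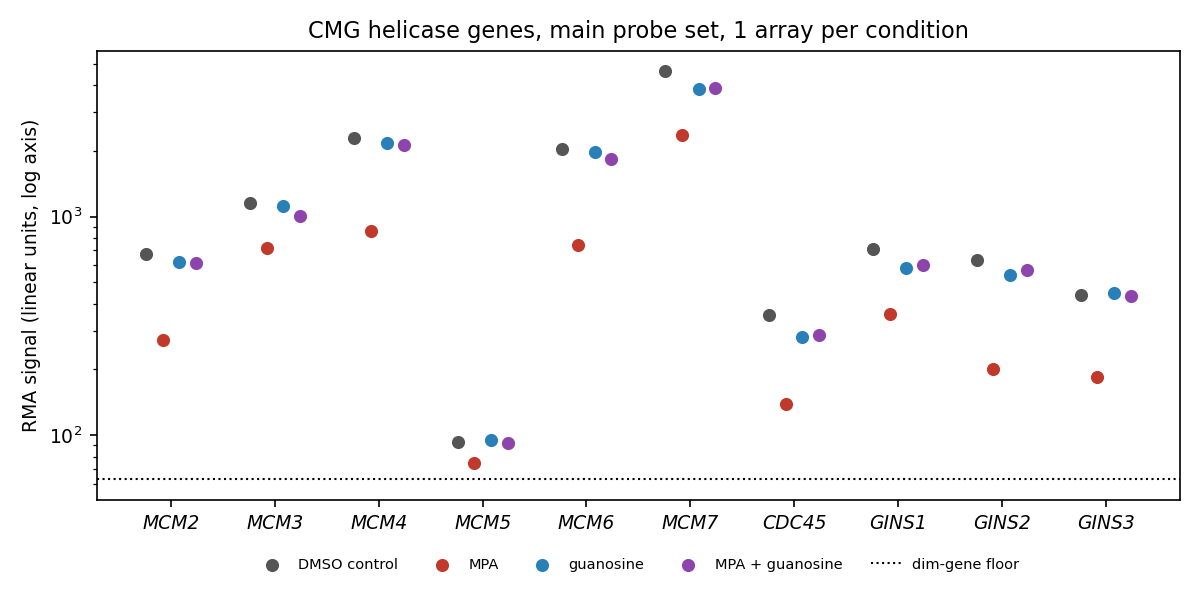
RMA signal (linear units on a log axis) of the main probe set of each helicase gene in the DMSO control, MPA, guanosine and MPA + guanosine arrays, 1 point per array; the dotted line is the dim-gene floor of 63.0. The MPA point is the lowest of the 4 for all 10 genes, and the other 3 points lie nearer to each other than to it. For MCM7, CDC45 and GINS1 the control point lies apart above both guanosine-containing points. Heights of different genes are not comparable, because probes differ in brightness.

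Of the motor subunit genes, 5 of 6 passed 1.5-fold on the lower side with MPA and 3 of 6 passed 2-fold, against 7.52% and 1.42% of all genes compared. MCM2, whose protein carries a tail that also binds histones, had a signal of 676 in the control, 273 with MPA, 618 with guanosine and 612 with both compounds. The MPA array stood apart below the other 3, at 2.48-fold below control (log2 -1.31). Its other 3 probe sets had differences between -1.61 and -1.38.

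MCM4, MCM6 and MCM7 form the subset of the ring first found to unwind DNA by itself. MCM4 had signals of 2296 in the control, 857 with MPA, 2166 with guanosine and 2131 with both, so that MPA was 2.68-fold below control. Its 5 probe sets, whose control signals ran from 108 to 2296, gave differences between -1.46 and -1.32, the narrowest spread among members with several probe sets (SD 0.06). The dimmest of them was below the floor with MPA, at 41.3 against 108 in the control.

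MCM6 had signals of 2039 in the control, 739 with MPA, 1981 with guanosine and 1830.2 with both. By main probe set it was 2.76-fold below control with MPA (log2 -1.47), the farthest of the MCM genes, and ranked 22 from the lowest of 10951 genes. That order depends on the probe set: by the median signal of each gene's probe sets, MCM2 was at -1.43 and MCM6 at -1.33. The other probe sets of MCM6 differed by -1.56 and -1.33, the former below the floor with MPA at 57.5. Only the MPA array stood apart.

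MCM7 had signals of 4624 in the control, 2350.5 with MPA, 3813 with guanosine and 3885 with both. Here the control was above both guanosine-containing arrays as well, and MPA was below all. The difference of MPA from control was -0.98, or 1.97-fold, which is just short of 2-fold, and the 4 probe sets lay between -1.08 and -0.88. AP4M1, an adaptor protein gene that starts 40 bases from the MCM7 start farthest upstream and runs the other way, had signals of 148, 140.4, 146 and 148 in the same order, a log2 difference of -0.08. TPRA1, which starts 180 bases from MCM2 in the same arrangement, was below the floor on all 4 arrays. Among the starts listed in the same promoter table, these were the only such neighbours within 1000 bases for the 8 genes with an entry. A neighbour whose start is not listed there would have been missed.

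MCM3 and MCM5 form one side of the ring, and MCM5 with MCM2 the gate through which DNA is thought to enter. The main probe set of MCM3 had signals of 1154 in the control, 717 with MPA, 1118 with guanosine and 1011 with both. Its difference with MPA was -0.69, whereas the other 3 probe sets of MCM3 gave -1.32, -1.38 and -1.32. The first of these, an _x_at probe set, is brighter than the main one, with 1664 in the control. The second is also an _x_at probe set, so only the third is outside that class, as the main one is. The main probe set thus stands apart from the others of this gene, and the median of its 4 probe sets' differences was -1.32. The platform lists the same target transcript for the main probe set and for that brighter one.

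MCM5 was read by 1 probe set only. Its signals were 93.7 in the control, 74.8 with MPA, 94.7 with guanosine and 92.4 with both, all close to the floor of 63.0. The difference with MPA was -0.33, and 18.3% of all genes compared were lower than that. MPA was again the lowest array, but MCM5 was the only member that did not reach 1.5-fold.

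**Figure D2:**
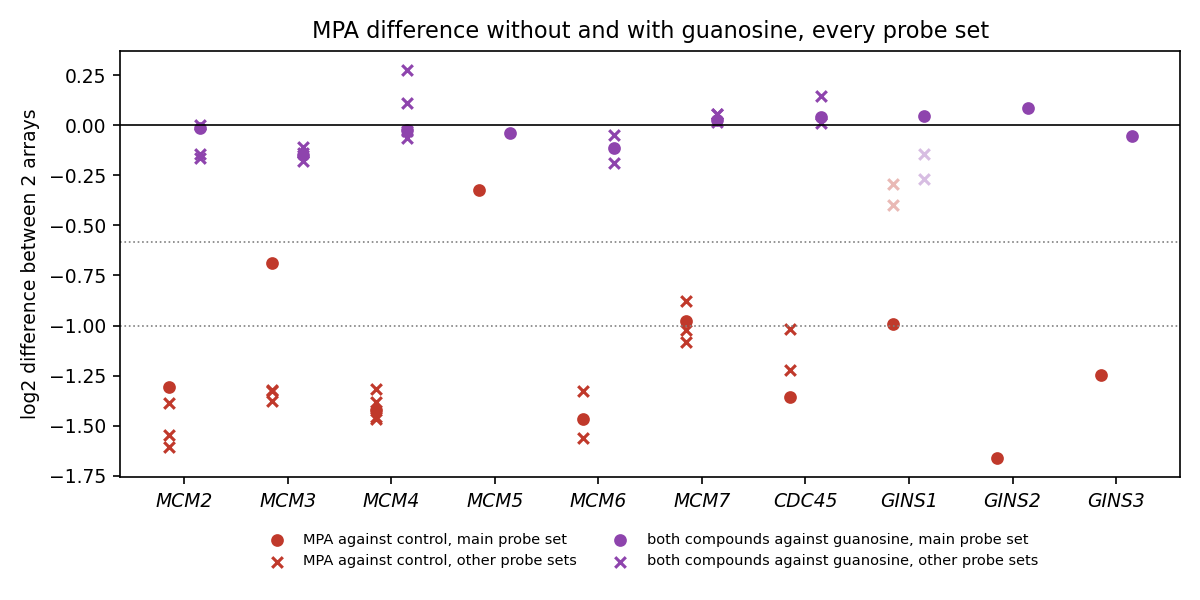
Log2 difference between 2 arrays for every probe set of each helicase gene: MPA against control in red and both compounds against guanosine in purple, circles for the main probe set, crosses for the others, pale where all 4 arrays are below the floor, with dotted lines at 1.5-fold and 2-fold lower. All 29 red points are below 0, between -1.66 and -0.29, and the main MCM3 probe set stands above its 3 other probe sets; the purple points lie between -0.27 and 0.28.

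CDC45 and the GINS genes encode the parts that turn the loaded ring into an active helicase. They were also lower with MPA, 4 of 4 by at least 1.5-fold and 3 of 4 by at least 2-fold, against 7.52% and 1.42% of all genes compared. CDC45 had signals of 355 in the control, 139 with MPA, 280.2 with guanosine and 289 with both. MPA was 2.56-fold below control (log2 -1.36), with -1.02 and -1.22 at the other 2 probe sets. As for MCM7, the control was the highest array and both guanosine-containing arrays lay between it and MPA.

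GINS2, also called PSF2, had signals of 633 in the control, 200.0 with MPA, 538 with guanosine and 571 with both. At 3.16-fold below control it was the member farthest from it and ranked 9 from the lowest of 10951 genes. It has 1 probe set. GINS3, or PSF3, also with 1 probe set, had signals of 439.6, 185, 447 and 431 in the control, MPA, guanosine and combined arrays. It was 2.37-fold lower with MPA, and the other 3 arrays lay close together.

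GINS1, or PSF1, had signals of 713 in the control, 358 with MPA, 582 with guanosine and 602 with both. Its difference with MPA was -0.99, just short of 2-fold. The other 2 probe sets of GINS1 were below the floor on every array, at 19.2 to 26.9, and differed by -0.29 and -0.40; the GINS1 value therefore rests on 1 probe set. Over all probe sets that reached the floor, 26 of 27 were at least 1.5-fold lower with MPA and 22 of 27 at least 2-fold, where 7.58% and 1.51% of 23675 probe sets were. The exception was that of MCM5.

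**Figure D3:**
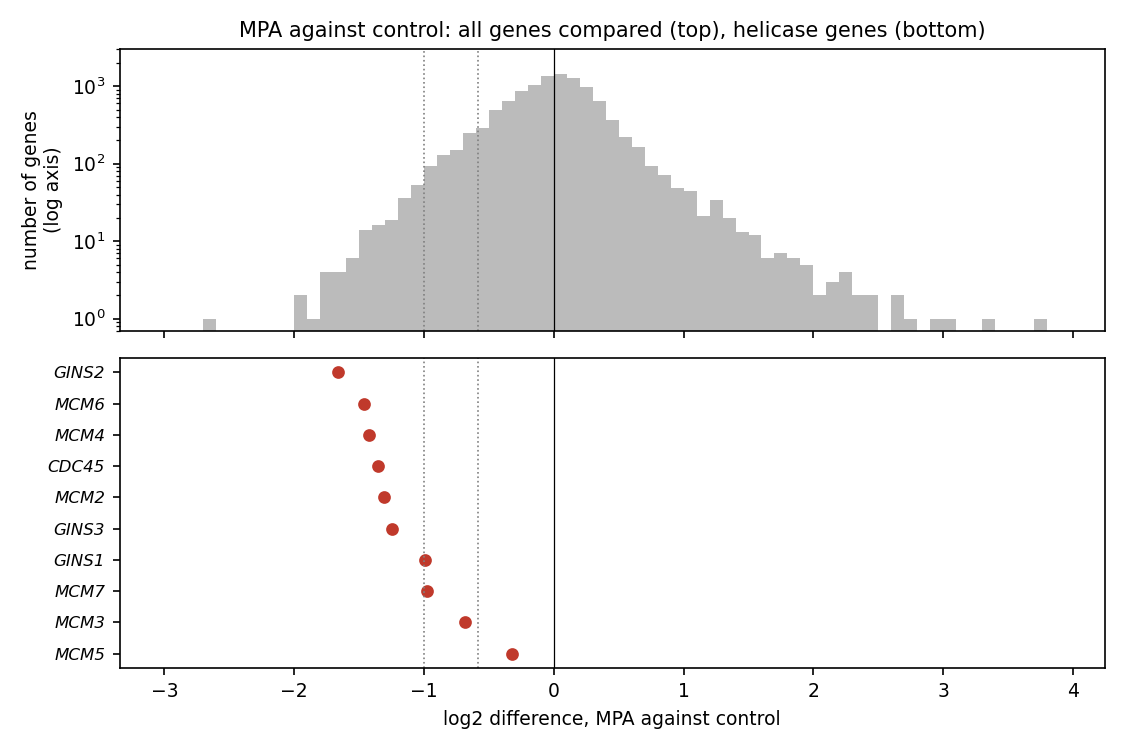
Top, the number of genes (log axis) by log2 difference of MPA against control for the 10951 genes compared; bottom, the same difference for each helicase gene, with dotted lines at 1.5-fold and 2-fold lower. The helicase genes lie between -1.66 (GINS2) and -0.33 (MCM5), on the lower side of a distribution with its median at 0.00.

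MPA against guanosine replaces the control by another array without MPA. The members' median was -1.10, with 9 of 10 genes at least 1.5-fold lower (7.76% of all genes) and 6 of 10 at least 2-fold lower (1.39%). GINS2 at -1.43, MCM6 at -1.42 and MCM4 at -1.34 led, and MCM5 stood at -0.34. This comparison shares the MPA array with the one above, so the values are given side by side only. By arithmetic, a difference is less negative here than against control wherever the guanosine signal was below control, as in 8 of 10 members. For MCM7, CDC45 and GINS1 the values were -0.70 against -0.98, -1.02 against -1.36, and -0.70 against -0.99.

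The arrays of both compounds and of guanosine alone differ by the presence of MPA in cells supplied with guanosine, and neither enters MPA against control. The members' median was -0.02, between -0.15 (MCM3) and 0.09 (GINS2), beside a median of 0.02 over 10599 genes. None of the 10 genes reached 1.5-fold in either direction (0 lower and 0 higher), nor did nearly all genes: 0.0189% were lower by that much and 0.0% higher. Among the members' probe sets the largest difference was that of the dim MCM4 probe set, 0.28, from 91.8 with guanosine to 111 with both. The MPA difference without guanosine minus that with guanosine was between -1.75 (GINS2) and -0.29 (MCM5), with a median of -1.25 for the members and -0.01 for all 11019 genes above the floor. With 1 array per condition this difference of differences has no test.

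Both compounds against MPA compares MPA-treated cells with and without added guanosine. All 10 genes were higher with guanosine added, 8 of 10 by at least 1.5-fold (8.82% of 10956 genes) and 6 of 10 by at least 2-fold (1.63%). Their median was 1.11 beside 0.02 for all genes, of which 48.0% were lower. GINS2 was 2.86-fold higher, MCM4 2.49-fold, MCM6 2.48-fold, GINS3 2.33-fold, MCM2 2.24-fold and CDC45 2.08-fold. GINS1 and MCM7 were 1.68-fold and 1.65-fold higher, and MCM3 (1.41-fold) and MCM5 (1.24-fold) did not reach 1.5-fold; the other 3 probe sets of MCM3 were at 1.03, 1.13 and 1.15 on the log2 scale. These values share the MPA array with those against control.

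Both compounds against control shows where the combined treatment left these mRNAs. All 10 genes were slightly below control, against 45.5% of 10672 genes, and lay between -0.30 (CDC45) and -0.02 (MCM5). The members' median was -0.15, and that of all genes was 0.02. None reached 1.5-fold lower (0 of 10, against 0.169% of all genes). In guanosine against control the members' median was -0.11, and that of all genes was 0.00. Of the members 8 of 10 were lower, against 50.2% of all genes, and 0 of 10 by 1.5-fold, against 0.131%. These comparisons share the control array, and their values are only set side by side.

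The members were not alike in guanosine against control. CDC45 (-0.34), GINS1 (-0.29), MCM7 (-0.28) and GINS2 (-0.23) were below control, and only 1.55% of all genes compared were lower than CDC45. MCM3 (-0.04), MCM6 (-0.04), MCM5 (0.02) and GINS3 (0.02) lay near 0, with MCM2 (-0.13) and MCM4 (-0.08) between. The 4 probe sets of MCM7 lay between -0.34 and -0.27 and the 3 of CDC45 between -0.35 and -0.17, so that the probe sets of each gene were on 1 side. Those of MCM6 lay between -0.09 and 0.00. MCM3 and MCM4 depended on the probe set: the other 3 of MCM3 were at -0.16, -0.14 and 0.01, and those of MCM4 ran down to -0.23, so their place in this order is not settled. With 1 array each, whether the genes differ in their response to guanosine was not tested.

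Over the 3 differences from control (MPA, guanosine, both), MCM7 and GINS1 were the closest pair of members, at a Euclidean distance of 0.0226 in log2 units. MCM4 and MCM6 followed at 0.0777, and MCM5 and GINS2 were farthest apart at 1.37. Of 11009 other genes above the floor, the one nearest to the members' median profile was DTL, an adaptor of the ubiquitin ligase that degrades CDT1, at 0.0206. DTL had signals of 624, 254, 583 and 565 in the control, MPA, guanosine and combined arrays. POLR1E (0.0742), RGMB (0.0771), CDCA4 (0.0854), CDC6 (0.0891) and CEP78 (0.106) came next. Taken singly, GINS2 was nearest to CDT1 (0.0648), MCM4 to the flap nuclease gene FEN1 (0.0619), CDC45 to the spindle checkpoint gene BUB1B (0.0565), GINS3 to the nuclease-helicase gene DNA2 (0.051), and both MCM7 and GINS1 to the ribosome biogenesis gene BOP1 (0.0273 and 0.037). MCM2 was nearest to DTL (0.0342), MCM3 to NUP160 (0.041), MCM5 to GATAD2B (0.00815) and MCM6 to SRSF2 (0.104). Likeness over 3 differences that share a control array is weak ground, and it is given as a description.

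The other genes of the pathway are given in lists grouped by role, for MPA against control. The share of all genes compared, to set beside each list's count, was 7.52% at least 1.5-fold lower and 5.41% at least 1.5-fold higher. Among loading factors and their inhibitors, 4 of 5 were at least 1.5-fold lower and the median was -0.996: the licensing factor CDT1 (-1.60), CDC6 (-1.30), the CDT1 inhibitor GMNN (-0.996) and the MCM-binding gene MCMBP (-0.92). The acetyltransferase gene KAT7 was at 0.17. Of 7 origin recognition genes 4 were lower by 1.5-fold, with ORC1 at -1.06, ORC6 at -0.99 and ORC3 at -0.65, whereas ORC4 was at 0.05. The list's median was -0.60.

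Among 14 genes of helicase activation above the floor, 9 were at least 1.5-fold lower and the median was -0.85. The cyclin gene CCNE2 stood at -1.96, MCM10, which encodes an activator of the assembled helicase, at -1.52, and CCNE1 at -1.18. The kinase subunit gene DBF4 was at -1.08 and the kinase gene CDC7 at -0.54. DDX11, a fork-associated helicase gene, was highest at 0.37, followed by RECQL4 at -0.27 and DONSON, whose protein brings GINS to origins, at -0.36.

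Of 30 genes whose products work beside the helicase at the fork, 16 were at least 1.5-fold lower and 1 at least 1.5-fold higher, with a median of -0.68. WDHD1, which links the helicase to DNA polymerase alpha, was at -1.44, FEN1 at -1.42 and POLE2, a subunit of the leading-strand polymerase, at -1.14. The sliding clamp gene PCNA had signals of 3372 in the control, 3310.4 with MPA, 2849.9 with guanosine and 2842 with both, and its difference with MPA was -0.03. The accessory polymerase subunit genes POLD4 (0.70) and POLE4 (0.53) were highest, with CHTF18 at 0.13.

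The genes of helicase unloading after termination had a median of -0.13 over 7 genes. Of these 1, the ubiquitin ligase substrate receptor LRR1, was lower by 1.5-fold (-0.73), and TRAIP (-0.33) and VCP (-0.28) were next. UFD1 was highest at 0.08, then UBXN7 at 0.05 and NPLOC4 at -0.08. MCM8 (-0.49) and MCM9 (-0.79), MCM-domain proteins of recombination repair that are not in the CMG ring, were both lower, and MCMDC2 was below the floor on all arrays.

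Among E2F factors, their partners and the pocket proteins, 5 of 18 genes were at least 1.5-fold lower, with a median of -0.51. LIN9, a subunit of the cell cycle repressor and activator complexes, stood at -1.74 with an MPA signal of 24.9, below the floor, E2F5 at -0.88 and E2F6 at -0.80. TFDP2 (0.22), RBL2 (0.09) and E2F7 (0.02) were highest. In all, 40 of 83 genes of these 7 lists were at least 1.5-fold lower with MPA, with a median of -0.58, beside 9 of 10 and -1.28 for the helicase genes and 7.52% of all genes. With guanosine present, the 83 genes had a median of 0.03 for both compounds against guanosine, and 0 were lower or higher by 1.5-fold. Nearly all genes were the same: of 10599, 0.0189% were lower and 0.0% higher by that much, with a median of 0.02.

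**Figure D4:**
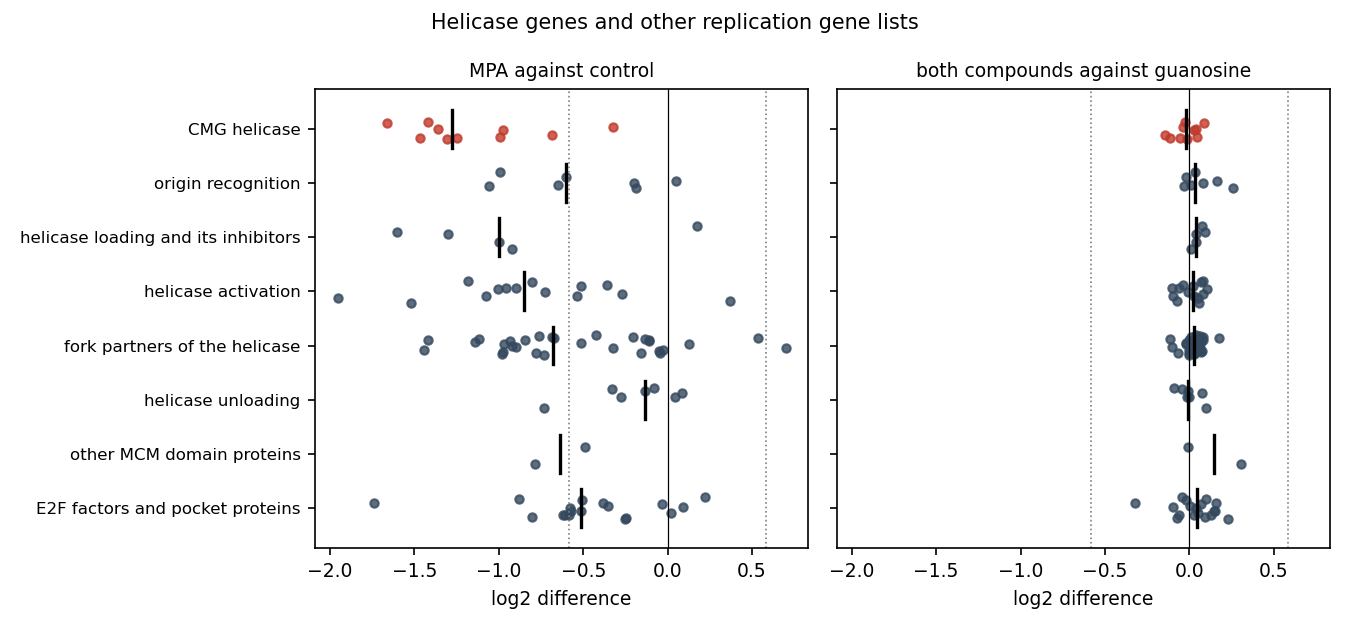
Log2 difference of each gene above the floor on at least 1 array (points) and each list's median (black bar) for MPA against control on the left and both compounds against guanosine on the right; dotted lines mark 1.5-fold. The helicase genes, in red, have a median of -1.28 on the left and -0.02 on the right; on the left the helicase unloading list has the median nearest 0, at -0.13.

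Across genes of the 7 lists that have a promoter window and were compared, 21 genes had the E2F motif and 50 had not. Their median differences with MPA were -0.62 and -0.51. For the helicase genes the medians were -1.22 with the motif (4 genes, MCM3, MCM6, MCM7 and GINS2) and -1.28 without (4 genes). That order turned with _x_at probe sets kept, to -1.39 with the motif and -1.30 without. Without the motif means only that the searched letters were absent, and MCM7 has them only at its farthest upstream listed start. The split therefore does not sort genes by E2F sites in general. Among all genes compared that have a window, 14.4% of 513 with the motif and 7.39% of 8557 without it were at least 1.5-fold lower. Genes are not replicates, and these shares are a description of the arrays.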

How the data were processed

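RNA of U87MG cells was read on 4 PrimeView arrays, 1 per condition. Per the labels, the deposited values are RMA signals made by the authors, which are intensity values on the linear scale; the sources used here do not name the software or its settings. RMA usually includes quantile normalisation, which would hide a change in total mRNA per cell. The log2 of each value was taken. Genes were named from the platform's table, 44988 non-control probe sets having 1 symbol, checked by Entrez ID against RefSeq (0 changed). A gene was read from its probe set with the highest mean among those not ending in _x_at, which served only where no other existed. A comparison used genes at or above 63.0 on at least 1 of its arrays. Genes were counted at 1.5-fold and 2-fold; no test was possible.

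All members were named with every probe set; in each list, the lowest and highest genes by the MPA difference and up to 2 more of each; and the 6 genes nearest the members' median profile, with the nearest to each member. CDC7, DBF4 and PCNA, and the promoter neighbours AP4M1 and TPRA1, were named after their values were seen. Members and lists were chosen with earlier results of these data known. Promoter windows are the 250 bases before RefSeq starts. One further subunit gene is not reported here. Counting was tested on simulated data. Python 3.11.15 with pandas 2.3.3 and limma 3.58.1 were used. The alternatives were no floor, a higher floor (75th percentile), each gene as the median over its probe sets, _x_at probe sets kept, cyclic loess (3 iterations) and log2(value + 16).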

Additional observations from a re-analysis of the deposited data

Results flagged for a closer look

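For 4 members the MPA difference had opposite signs without and with guanosine, on 1 array per condition, and the difference between them was not tested. With guanosine present (both compounds against guanosine) the log2 differences were 0.027 for MCM7, 0.042 for CDC45, 0.047 for GINS1 and 0.086 for GINS2. Without guanosine (MPA against control) they were -0.98, -1.36, -0.99 and -1.66. These are also the 4 members with the lowest values in guanosine against control, and the guanosine array enters both that comparison and the one of both compounds against guanosine. In the latter, the median of all genes was 0.018 and 40.8% of them were lower, so a positive sign was common. The typical SD between probe sets of 1 gene was 0.07 there.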

How the results depend on the processing

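The counts of helicase genes at 1.5-fold, in both directions and all 6 comparisons, stayed within 1.5 times of the reported counts under the 6 alternatives. The counts at least 2-fold lower shifted under some of them. For MPA against control, 6 of 10 became 8 of 9 with the median of each gene's probe sets and 7 of 10 with _x_at kept. For MPA against guanosine, 6 of 10 became 5 of 9 and 7 of 10 under the same settings. With cyclic loess or log2(value + 16) it became 5 of 10. As no replicates exist, a median was taken as moved when it shifted by more than the typical SD between probe sets of 1 gene (0.09 for MPA against guanosine, 0.14 for MPA against control). The medians that moved were those of MPA against guanosine, from -1.10 to -1.20 with the median of each gene's probe sets and to -1.21 with _x_at probe sets kept. GINS1 dropped out under the former, since 2 of its 3 probe sets are below the floor, and MCM5 dropped out with the floor at the 75th percentile, so those settings rest on 9 genes. For MPA against control the median lay between -1.34 (_x_at kept) and -1.21 (cyclic loess). Among single genes MCM3 ranged most over these settings, from -1.32 with _x_at kept to -0.61 with cyclic loess, with -1.09 for the median signal of its probe sets. Leaving out a replicate was not possible with 1 array per condition. No paired analysis was possible because each condition has 1 array. Differences of dim probe sets, as for MCM5, are limited by their signal over background.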
